A study of Eucalyptus camaldulensis with 12 samples.

Results

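The comparison described here is the change in leaf gene expression of water-stressed Eucalyptus camaldulensis (river red gum) seedlings, net of the change over the same period in watered seedlings. It uses 12 of the 12 RNA-seq libraries of the series, chosen by the group letters and digits in their titles. The groups are C0 and C1, the control seedlings before and after the treatment period, and S0 and S1, the seedlings of the stress treatment before and after it. Each group has 3 libraries, 1 from each of the natural populations Katherine, Mt Isa and Petford, and the populations serve as the replicates.

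Each library is a bulk of leaves of 1 population, with 2 leaves from each seedling. The C0 and C1 bulks of a population hold the same 5 seedlings, and the S0 and S1 bulks hold the same 10 others. Controls were kept at field capacity, and stressed seedlings were held at 30% of field capacity for about 2 months. All seedlings grew in the same glasshouse. The arms therefore differ in their seedlings and in the size of the bulk as well as in watering. The p-values measure the spread left between bulks of 3 populations once the mean level of each population is taken off as a block.

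The net change of a transcript is (S1 - S0) - (C1 - C0) on the log2 scale, so that a transcript that changed alike in both arms has a net change near 0. A net rise means that the transcript rose more, or fell less, in stressed than in watered seedlings. The change from S0 to S1 is called the stress arm and the change from C0 to C1 the watered arm. Every value in read counts scaled to library size (CPM, reads per 1000000) below is given in the order Katherine, Mt Isa, Petford, errors are standard errors of log2 values, and a transcript is called where its p-value, adjusted over all transcripts tested, was under 0.01. CPM values are not divided by transcript length, so they compare libraries and not genes.

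Drying soil makes plants raise abscisic acid, a hormone that closes stomata. In the textbook pathway its receptors inhibit clade A protein phosphatases, which frees SnRK2 kinases to act on transcription factors such as the ABFs. Dehydrating cells also accumulate late embryogenesis abundant (LEA) proteins, raffinose-family sugars and chaperones, while cell expansion slows. Leaves also change with plant age and season when well watered, and the net change takes off the change seen in the watered seedlings. Whether stressed seedlings had the same part of change with age and season was not tested.

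The table held 43425 predicted transcripts on 864 scaffolds of the draft genome of Eucalyptus grandis, and 41513 distinct transcripts with at least 10 reads were tested. Library totals ranged from 1726793 to 6951584 reads. The 10 most abundant transcripts took 3.73% to 13.2% of the reads of a library. For the Mt Isa C1 and Mt Isa S0 libraries, the source name goes against the title while the group characteristic gives the same group as the title; the titles were followed. Summed laccase transcripts, picked after their values were seen, stood at 4818 CPM in Mt Isa C1 (3289 and 3595 in the other C1 libraries) and at 705 CPM in Mt Isa S0 (670 and 606 in the other S0 libraries, 430 to 568 in C0). Counts without both libraries are given where they differ most. Light harvesting and carbon fixation transcripts were present in every library, at summed levels of 12574 to 79590 CPM and 10583 to 108354 CPM, as in leaf. Lists of other tissues were also above 0 in every library: 1203 to 5715 CPM for cell division, 7967 to 12741 CPM for epidermis and cuticle and 1391 to 5120 CPM for secondary wall and xylem. Cell division transcripts summed to 1203 to 1330 CPM in S1 and 3378 to 5715 CPM in the other groups, and secondary wall transcripts to 4348 to 5120 CPM in C1 and 1391 to 2434 CPM in the other groups; the part of such shifts in the results of other lists was not tested. In bulked leaves, fewer cells of a type and less RNA per cell cannot be told apart.

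Before the treatment, few transcripts were called as different between the seedlings of the arms, which does not show that the arms were alike. At the start, S0 against C0, 6 transcripts (0.0145%) were called by edgeR's quasi-likelihood test and 6 by DESeq2, and 2743 (6.61%) had an unadjusted p under 0.05. The median size of the start difference was 0.38 on the log2 scale, against 1.02 for the net change. This count depended on single libraries: it was 92 without the Mt Isa C0 or the Mt Isa S0 library, 44 without Mt Isa S1, 34 without Petford C1, 21 without Katherine C1, 16 without Katherine S1, 13 without Petford S0, 10 without Mt Isa C1, and 76 without both the Mt Isa C1 and S0 libraries. It was 195 without the Mt Isa population, and 0 in the fit without the population block, with 2420 transcripts at an unadjusted p under 0.05. The largest median start difference among the gene lists below was 1.98, for homologs of chloroplast or mitochondrial genes, with 0 of them called.

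The net change was called for 5642 transcripts, 13.6% of those tested. Net rises numbered 2271 (5.47%) and net falls 3371 (8.12%), and 12508 transcripts (30.1%) had an unadjusted p under 0.05. Falls were larger than rises: the median over called rises was 1.75 and over called falls -2.97. Of the called transcripts 5490 differed at least 2-fold, 3442 at least 4-fold (943 rises and 2499 falls) and 2127 at least 8-fold (465 rises and 1662 falls). Without the Mt Isa C1 and S0 libraries 4244 transcripts were called, 1320 rises and 2924 falls.

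**Figure D1:**
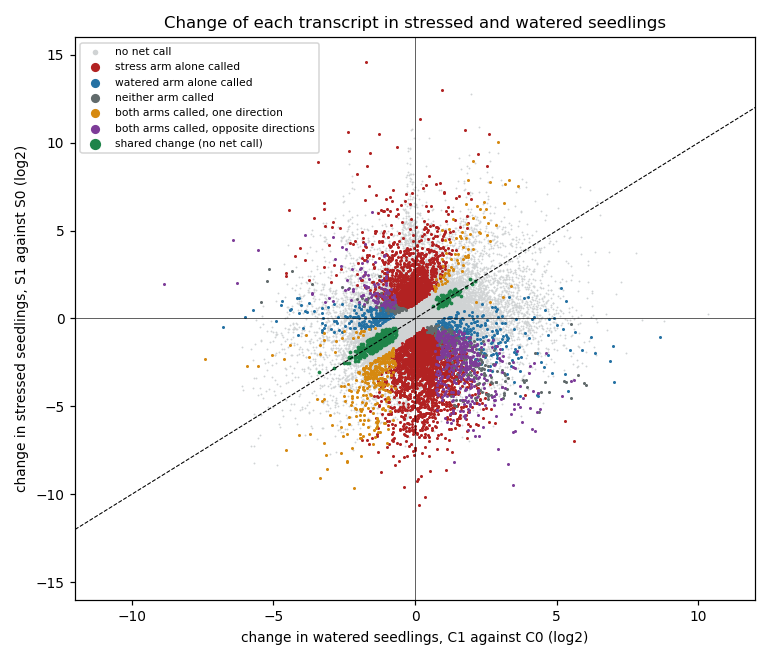
Each point is a transcript; the x axis is its change in watered seedlings (C1 against C0, log2) and the y axis its change in stressed seedlings (S1 against S0, log2), coloured by which arm was called at an adjusted p under 0.01. The dashed line marks equal change in both arms, so distance from it is the net change; 5642 transcripts were called off it and 446 lay near it with both arms called.

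The stress arm made up most of the net change. In stressed seedlings 10143 transcripts (24.4%) were called, 4805 higher (11.6%) and 5338 lower (12.9%) at the end, and in watered seedlings 2983 (7.19%) were called, 1224 higher (2.95%) and 1759 lower (4.24%). The median size of the change over all transcripts was 0.91 in the stress arm and 0.57 in the watered arm, with median standard errors of 0.60 and 0.64. In Katherine and Petford the stress-arm libraries held more reads than the watered-arm ones, such as 6951584 in Petford S1 and 2987962 in Petford C1. In Mt Isa, S0 held 1726793 and C0 3277834. The part of depth and bulk size in these counts was not tested. The watered-arm count fell to 1943 without the Katherine C0 library. The arms compare separate libraries but are contrasts of the same fit, and the net change uses both. The split that follows therefore describes how each net change is composed and is no independent evidence for it.

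Of the 5642 net calls, 3887 (68.9% of them, 9.36% of transcripts tested) were called in the stress arm and not in the watered arm, 1739 rises (4.19%) and 2148 falls (5.17%). A further 482 (8.54% of calls, 1.16% of transcripts) were called in the watered arm alone, with 221 rises (0.532%) and 261 falls (0.629%). Both arms were called in opposite directions for 562 (9.96% and 1.35%) and in the same direction for 394 (6.98% and 0.949%), 102 rises (0.246%) and 292 falls (0.703%), and neither arm was called for 317 (5.62% and 0.764%). Net falls made up most of the opposite group, 440 (1.06%) against 122 rises (0.294%): these transcripts rose in watered seedlings while they fell in stressed seedlings. In the same-direction group, 288 fell in both arms and fell further under stress (median change -3.34 in the stress arm and -1.39 in the watered arm), and 76 rose in both arms and rose further under stress (medians 3.71 and 1.55). Another 26 fell in both arms but less under stress, and 4 rose in both arms but less under stress. These splits moved with the fit. With no population block the opposite group held 288 transcripts, the same-direction group 217 and the watered arm alone 306, and with the seedling set as block the opposite group held 873 and the same-direction group 613. Without the Mt Isa C1 and S0 libraries the watered arm alone held 279 and neither arm 209. Single libraries moved them too: without the Katherine C0 library the same-direction group held 219 and the watered arm alone 274, and the watered arm alone held 292, 299 and 314 without the Mt Isa C0, Katherine C1 and Mt Isa C1 libraries.

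**Figure D2:**
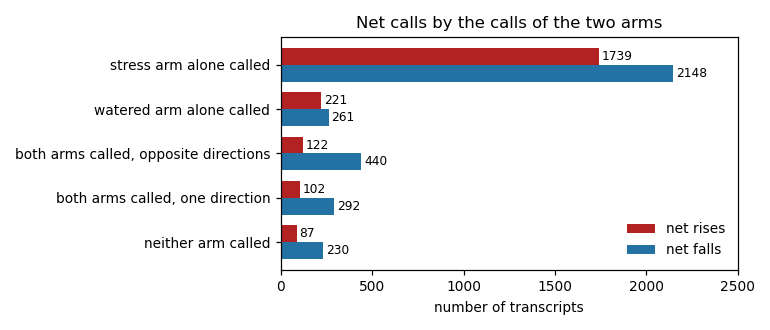
Bars count the transcripts with a called net change by which arm was called (adjusted p under 0.01), with net rises and net falls apart. The stress arm alone holds 1739 rises and 2148 falls, and falls outnumber rises 440 to 122 where the arms moved in opposite directions.

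The net change had the same sign in all 3 populations for 5617 of the called transcripts (99.6%), against 50.3% of all transcripts tested. The calls were made on these same values, so this share and those that follow are largely fixed by the call and describe the calls without supporting them. The median net change over calls was -1.52 in Katherine, -1.19 in Mt Isa and -1.45 in Petford, where each population has 1 library in each group and no test of its own. For 5584 calls (99%) no population of one arm overlapped the other arm in its change, against 36.5% of all transcripts. In 2351 calls (41.7%) the arms moved in opposite directions in every population, against 9.89% of all transcripts.

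Gene names were available for 1730 transcripts. Of these, 1161 were named by their coordinates in a table of transcripts that the study had selected for a difference between C1 and S1, and 569 by a SNP in a table selected for allelic change between S0 and S1. Named genes were therefore chosen partly on these libraries, their directions are not independent evidence, and 1260 of them (72.8%) had a called net change, 92.5% of those named by coordinates and 32.7% of those named by SNP. Names follow the closest Arabidopsis protein, so the roles below are those of the Arabidopsis gene. Over all named genes 26.2% were net rises and 46.6% net falls, with a median net change of -0.61. The shares differed with the source of the name: 27.7% rises and 64.8% falls among genes named by coordinates, and 23% rises and 9.67% falls among genes named by SNP. Lists made mostly of genes named by coordinates, such as the cell wall list with 67 of 70, are therefore to be read beside the former. No list median below was on the other side of 0 under any alternative fit unless that is stated.

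**Figure D3:**
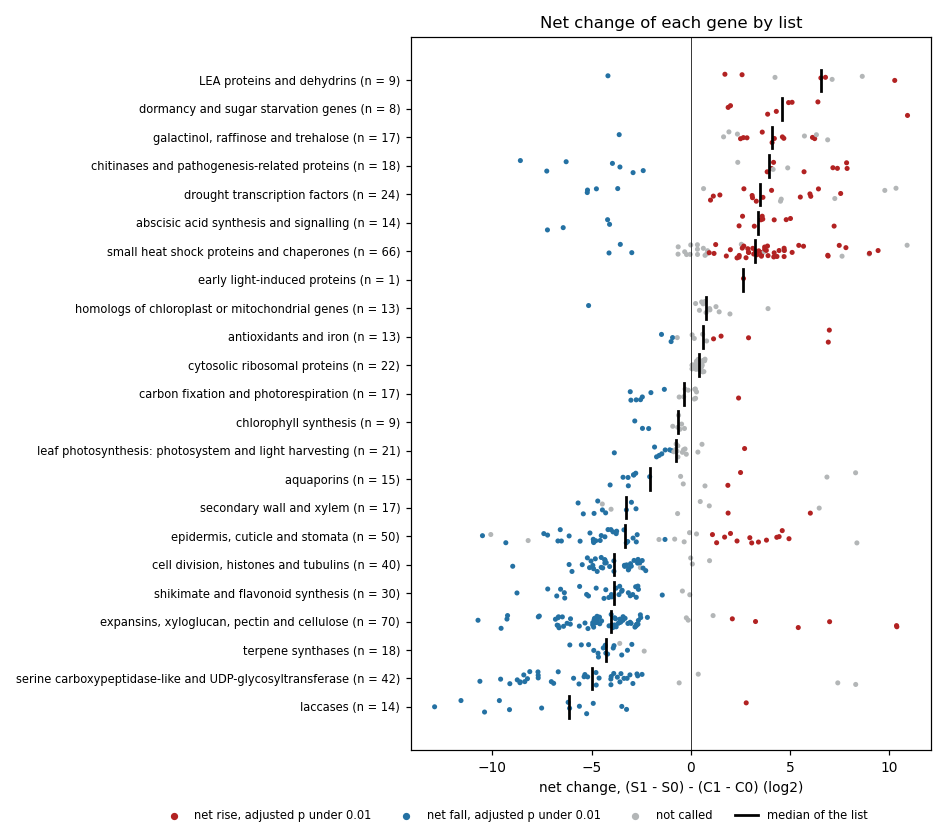
Points are genes, placed by their net change (x axis, log2) within each list (y axis), red for called rises, blue for called falls and grey for genes not called; the bar marks the list median. Medians run from 6.55 for LEA proteins to -6.14 for laccases, with ribosomal proteins near 0.42 and no call among 22.

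Abscisic acid genes divided by step of the pathway, a division read after the values were seen. All 14 genes of the list were called, 10 net rises and 4 net falls, with a median of 3.36. Of these, 13 were named by coordinates, a set in which 92.5% were called. The 4 falls were all enzymes of hormone synthesis: 2 transcripts matching ABA2 (-7.22 and -6.43), which oxidises xanthoxin, NCED3 (-4.19), which cleaves epoxycarotenoids in the step that usually limits synthesis, and ABA4 (-4.09), which acts in neoxanthin formation. The 10 rises were regulators. They comprised 6 phosphatases of clade A, the negative regulators of the pathway: HAB1 with 2 transcripts (2.43 and 3.19), ABI2 (3.53), PP2CA with 2 transcripts (3.59 and 7.21) and AHG1 (4.80). The others were the kinase SNRK2.2 (3.62), the transcription factor ABF2 (2.60), AFP2 (4.20), which binds ABI5, and XERICO (5.02), a RING protein that raises abscisic acid when overexpressed in Arabidopsis.

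XERICO (Eucgr.K01389, scaffold 11 from 17034641 to 17037844) stood at 45, 43.5 and 37.6 CPM in C0 and 20.6, 30.1 and 23.7 in C1, and at 140, 32.2 and 50.5 in S0 and 1355, 1070 and 1504 in S1. Every S1 library was above every other library. The resulting net change was 5.02 ± 0.41 (32.4-fold, adjusted p 6.67e-11), with 4.25 from the stress arm. ABA2 (Eucgr.L01033, scaffold 109 from 30359 to 31982) moved the other way, from 8.03, 21.6 and 10.5 CPM in C0 to 47.6, 65.1 and 30.4 in C1, and from 5.28, 25 and 23.1 in S0 to 0, 0.81 and 0.485 in S1. It rose by 1.90 in watered seedlings (adjusted p 8.0e-05) and fell by 5.32 in stressed seedlings, a net change of -7.22 ± 0.63. Only 5 reads of it lie in the S1 libraries together, against 371 in C1.

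LEA proteins, which protect membranes and proteins in drying cells, included the second largest net rise of the genes named by the rule for size. In the LEA and dehydrin list 5 of 9 genes were net rises, 1 was a net fall and 3 were not called, 2 of them with no read in at least 1 group. The median was 6.55, or 5.82 with those genes set at a floor of 3 reads over the group. LEA4-5 (Eucgr.K01836, scaffold 11 from 22782348 to 22783504) had 1.61, 6.07 and 3.87 CPM in C0, 1.35, 0.486 and 1.27 in C1, 3.25, 4.17 and 7.34 in S0, and 1379, 760 and 2453 in S1. The S1 libraries held 23427 reads of it, against 28, 9 and 48 in C0, C1 and S0, and every S1 library was above every other. This gave a net change of 10.27 ± 0.65 (adjusted p 2.35e-13), of which 8.23 ± 0.33 came from the stress arm. RD29B, a desiccation-responsive gene, had a net change of 6.55 ± 0.41. The net fall, -4.18 ± 0.56, was in a hydroxyproline-rich glycoprotein of the LEA class (Eucgr.A00854), whose family differs from the hydrophilic LEA proteins. RD29B and this gene were picked after their values were seen.

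Genes of raffinose and trehalose metabolism were mostly net rises, and 5 of the 17 listed genes fell in watered seedlings. The list of galactinol, raffinose and trehalose genes held 10 net rises, 1 net fall and 6 genes not called among 17, with a median of 4.09 (4.20 with the 4 genes without reads in a group at the floor). Galactinol synthase makes the galactosyl donor for raffinose. AtGolS4 (Eucgr.B03987) fell in watered seedlings from 105, 213 and 119 CPM to 22.3, 1.94 and 35.8, and rose in stressed seedlings from 210, 163 and 157 CPM to 1994, 1981 and 1585. Both arms were called, at -2.84 ± 0.39 and 3.40 ± 0.36, for a net change of 6.23 ± 0.53 (75.3-fold, adjusted p 1.38e-10).

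AtGolS1 (Eucgr.K03563), the member of the list with most reads, had a net rise made in the watered arm. It went from 2316, 2455 and 1865 CPM in C0 to 351, 17.5 and 549 in C1, while S0 (3486, 2148 and 3286 CPM) and S1 (2870, 1909 and 1993 CPM) overlapped. The stress arm was -0.36 ± 0.42 and the watered arm -3.18 ± 0.48, so that the net change of 2.83 ± 0.63 (adjusted p 0.00119) reflects a fall that the stressed seedlings did not show. The Mt Isa C1 library held the lowest value; without the Mt Isa population the net change was 1.64, and without the Mt Isa C1 and S0 libraries 1.65, both still called. It was not called without the population block (adjusted p 0.052) or by DESeq2 (0.075). AtSIP2 (Eucgr.A02374), a raffinose-cleaving galactosidase, was called in both arms, from 624, 766 and 644 CPM to 331, 304 and 409 in watered and from 907, 881 and 921 to 2849, 2260 and 2728 in stressed seedlings, with a net change of 2.50 ± 0.25.

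Most small heat shock proteins and chaperones were net rises. Of 66 genes 44 were net rises, 3 net falls and 19 not called, with a median of 3.21. This list moved in watered seedlings as well: 23 genes rose and 9 fell there, and 20 of its 47 net calls were called in both arms in the same direction. HSP21, the small heat shock protein of chloroplasts, had 2 transcripts among the 8 largest rises. Its transcript Eucgr.K00423 was at 9.11, 9.78 and 6.64 CPM in C0, 6.76, 1.94 and 4.43 in C1, 8.93, 10.1 and 11.6 in S0, and 1580, 710 and 1230 in S1, a net change of 7.81 ± 0.43 (adjusted p 1.09e-14). The other, Eucgr.L02980, had a net change of 7.47 ± 0.47, and reads may be divided between such similar copies. The member with most reads, an HSP70 (Eucgr.J00025), was not called by edgeR: its libraries lay at 1967 to 2881 CPM in C0, 2965 to 3524 in C1, 2811 to 3118 in S0 and 2198 to 2790 in S1, with a net change of -0.65 ± 0.25 (adjusted p 0.0693 by edgeR). DESeq2 did call it a net fall, at -0.75 (adjusted p 0.00288).

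Not every chaperone rose under stress. CLPC (Eucgr.K02198), a chaperone of the chloroplast Clp protease, fell from 917, 1022 and 958 CPM to 215, 267 and 393 in watered seedlings and went from 1065, 952 and 1180 to 827, 546 and 879 in stressed seedlings. Its watered arm was -1.76 ± 0.20 and its stress arm -0.52 ± 0.19 (adjusted p 0.034), giving a net change of 1.25 ± 0.27 (adjusted p 0.000746), which was not called without the Katherine population (adjusted p 0.026). ROF1 (Eucgr.K02110), a peptidyl-prolyl isomerase that binds HSP90, rose alike in both arms, by 1.15 ± 0.17 under stress and 0.82 ± 0.17 in watered seedlings, a net change of 0.33 with a 95% interval of -0.16 to 0.83.

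Transcription factors of drought response gave 14 net rises and 4 net falls among 24, with 6 not called and a median of 3.46. The bZIP factor ATBZIP53 (Eucgr.H04038), which in Arabidopsis acts in seed maturation and under energy starvation, rose from 2.84, 4.17 and 5.78 CPM in S0 to 171, 80.6 and 102 in S1. In watered seedlings it went from 7.5, 4.72 and 1.66 CPM to 0, 0.971 and 0.95, so the arms were called in opposite directions for a net change of 7.54 ± 0.70 (adjusted p 8.8e-10). The member with most reads, KNAT4 (Eucgr.C02727), a homeobox gene, was called in neither arm but had a net change of 0.99 ± 0.24 (adjusted p 0.00314). That call did not survive the removal of any one of 6 libraries, Katherine C0, S0 or S1 or Mt Isa C1, S0 or S1, where adjusted p was 0.0139 to 0.0616.

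All 8 genes of the dormancy and sugar starvation list were net rises, with a median of 4.61. Before the treatment, S0 against C0, 1 of them was already called as different, and the median start difference of the list was 0.70. Eucgr.D00606, a dormancy-associated protein, dropped from 14.5, 14.5 and 15.5 CPM to 1.01, 2.43 and 4.75 in watered seedlings and rose from 39.8, 14.3 and 30 CPM to 313, 459 and 550 in stressed seedlings. No library of S1 overlapped another group, and the net change was 6.40 ± 0.46 (adjusted p 4.01e-12). DIN10 (Eucgr.C04266), a gene induced in the dark in Arabidopsis, rose in both arms, by 2.98 ± 0.22 in stressed and 0.98 ± 0.21 in watered seedlings, with a net change of 2.0 ± 0.29. In the watered arm 4 members fell and 1 rose, and in the stress arm 7 rose.

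Called chitinases were net rises, and the other pathogenesis-related proteins moved in both directions, a division read after the values were seen. The list held 8 net rises, 7 net falls and 3 genes not called among 18. All 5 called chitinases were rises. The 7 falls comprised 4 thaumatin-like and 3 CAP-domain proteins, while 1 thaumatin-like protein, 1 osmotin (ATOSM34) and 1 further pathogenesis-related protein rose. The chitinase ATHCHIB (Eucgr.I01495) stood at 2.68, 3.71 and 2.21 CPM in C0, 1.01, 1.94 and 0.95 in C1, 28.4, 19.1 and 3.11 in S0, and 1251, 916 and 829 in S1, a net change of 7.38 ± 0.75 (adjusted p 5.02e-09). The thaumatin-like Eucgr.B00944 rose in watered seedlings from 51.4, 22.9 and 38.7 to 362, 162 and 107 CPM and fell in stressed seedlings from 41.4, 17.3 and 27.6 to 0.433, 0.405 and 0.323 CPM. That is a net change of -8.59 ± 0.46 (adjusted p 7.61e-15), with 5 reads left in S1.

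Photosynthesis genes fell in stressed seedlings and also in watered ones. Among 21 photosystem and light harvesting genes, 19 fell in the stress arm (median -2.28) and 20 fell in the watered arm (median -1.50). The net change was called for 9, 8 falls and 1 rise, with 12 not called and a median of -0.74. Carbon fixation and photorespiration genes behaved alike: of 17, 15 fell in the stress arm and 13 in the watered arm, with medians of -2.18 and -1.59, and the net change gave 7 falls and 1 rise with a median of -0.36. In chlorophyll synthesis all 9 genes fell in the stress arm and 8 in the watered arm, and 3 were net falls. Of the genes in these lists 19 of 21, 12 of 17 and 8 of 9 were named by SNP. In all, 5 photosystem, 7 carbon fixation and 2 chlorophyll genes met the definition of a shared change given below. These medians rested on single populations: without Petford and without Mt Isa they were -0.53 and -1.15 for photosystem genes and -0.0945 and -0.63 for carbon fixation, and the chlorophyll median was -1.03 without Mt Isa. The photosystem falls numbered 13 by DESeq2 and 5 without the Petford population. With DESeq2's size factors the median of all transcripts moved by -0.1055, so values this close to 0 depend in part on the scaling.

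The most abundant light harvesting transcript, LHB1B1 (Eucgr.E02381, scaffold 5 from 36145832 to 36147094), encodes a chlorophyll-binding protein of photosystem II. It was at 15892, 15005 and 15407 CPM in C0, 6618, 6025 and 8689 in C1, 17151, 13627 and 23701 in S0 and 4602, 5191 and 5093 in S1. It fell by 1.14 in watered and by 1.84 in stressed seedlings, and the net change of -0.70 ± 0.25 was not called by edgeR (adjusted p 0.0442). It was called by DESeq2 (-0.80, adjusted p 0.00663) and with library totals in place of TMM (-0.77, adjusted p 0.00603), and it was -0.45 without the Petford and -1.10 without the Mt Isa population, not called in either. Another transcript of that name, Eucgr.D00321, showed the largest net fall of the list, from 3731, 3612 and 4733 CPM to 447, 391 and 447 in watered seedlings and from 4713, 3069 and 8758 to 25.5, 52.3 and 41.4 in stressed seedlings. It had a net change of -3.86 ± 0.34 (adjusted p 2.72e-10), but the transcript overlaps another and its reads are therefore uncertain.

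Both small-subunit transcripts of Rubisco named here were net falls, and neither activase transcript was called. RBCS1A (Eucgr.J01502), the small subunit with most reads, went from 28187, 24785 and 34599 CPM in C0 to 6631, 7952 and 14122 in C1, and from 33056, 19340 and 56660 in S0 to 2779, 1695 and 3746 in S1. Its net fall was -2.01 ± 0.28 (adjusted p 1.25e-06), beyond a watered arm of -1.67 ± 0.20. A second transcript of the small subunit, Eucgr.K02223, had a net change of -3.05 ± 0.29, with S1 at 79.9, 155 and 99 CPM. For Rubisco activase, which keeps the enzyme active, RCA (Eucgr.J02030) fell by 2.43 under stress and by 2.14 in watered seedlings, a net change of -0.29 with a 95% interval of -0.87 to 0.29. The other activase transcript, Eucgr.J01234, had 0.24, with an interval of -0.34 to 0.82. GAPB (Eucgr.F01793), a Calvin cycle dehydrogenase, fell from 3823, 4253 and 3533 to 1166, 1341 and 1802 CPM in watered and from 4163, 3424 and 5604 to 302, 271 and 298 CPM in stressed seedlings, a net change of -2.44 ± 0.26.

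In chlorophyll synthesis, GUN5 (Eucgr.A02348), a subunit of magnesium chelatase, fell in both arms to 1107, 1311 and 1807 CPM in C1 and 304, 399 and 348 in S1, from 3386 to 5043 CPM before treatment. Its net change was -2.13 ± 0.25 (adjusted p 8.65e-08). GGR (Eucgr.F00752) is in this list by its annotated name, geranylgeranyl reductase, and its role in chlorophyll synthesis was not tested. It rose in watered seedlings from 55.2, 52.3 and 64.7 CPM to 185, 182 and 176. In stressed seedlings it fell from 79.2, 64.4 and 61.8 to 21.2, 29.2 and 42.2. The early light-induced protein ELIP1 (Eucgr.B01896), which binds chlorophyll in leaves under excess light, rose: S1 was at 3548, 1505 and 1782 CPM against 112 to 561 CPM in all other libraries. Its net change was 2.61 ± 0.48 (adjusted p 0.000108 by edgeR, 0.0174 by DESeq2).

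**Figure D4:**
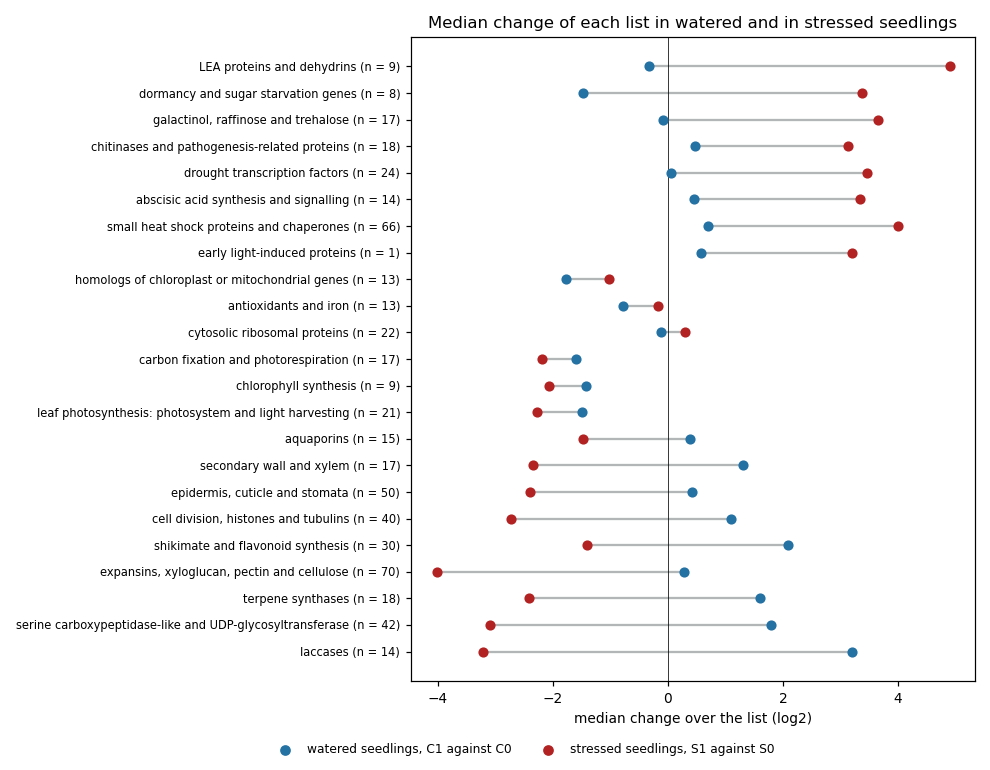
For each list (y axis) the blue point is the median change in watered seedlings (C1 against C0) and the red point the median change in stressed seedlings (S1 against S0), both in log2 on the x axis; the grey line between them is the gap that the net change measures. Photosynthesis and chlorophyll lists have both points below 0, whereas laccases lie at 3.20 in watered and -3.22 in stressed seedlings.

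Most cell wall genes were net falls, and the fall lay in stressed seedlings. The list of expansin, xyloglucan, pectin and cellulose genes was filled by annotated name. Of its 70 genes 61 were net falls, 6 net rises and 3 not called, with a median of -4.00. The stress arm had a median of -4.02 and the watered arm of 0.28, and 50 of the 67 net calls were called in the stress arm alone. The member with most reads, ELP (Eucgr.C02759), is extensin-like and is in the list by its annotated name alone. It was at 2508, 2447 and 2553 CPM in C0, 874, 811 and 1452 in C1, 2521, 2017 and 2676 in S0 and 28.8, 21.5 and 30.2 in S1. All S1 libraries lay below all others, and the net change was -5.18 ± 0.27 (adjusted p 4.43e-15) beyond a watered arm of -1.30 ± 0.18.

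An exception was the expansin-like gene ATEXLB1 (Eucgr.E00358, scaffold 5 from 3366526 to 3368356), the largest net rise of the genes named for size. S1 stood at 1017, 427 and 800 CPM with 10704 reads, while C0, C1 and S0 held 12, 9 and 7 reads. It had a net change of 10.37 ± 1.34 (adjusted p 4.2e-07). All 12 reads of C0 came from Mt Isa, and without that library the value was 4.77 and not called (adjusted p 0.992 by edgeR). The stress arm of 9.74 ± 0.54 compares S1 with S0, but that library enters it through the shared fit. Without the Mt Isa C0 library the net rises of this list numbered 3.

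Laccases, the copper oxidases that polymerise phenolics, moved in opposite directions in the arms. Of 14 genes 13 rose in the watered arm, and the same 13 fell in the stress arm and were net falls; the remaining gene, LAC5, was a net rise of 2.79 ± 0.42. The median net change was -6.14, made of 3.20 in watered and -3.22 in stressed seedlings. LAC14 (Eucgr.H02579) went from 5.89, 13.2 and 26 CPM to 117, 340 and 170 in watered seedlings and from 19.9, 30.4 and 14.7 to 0.216, 0.81 and 0.162 in stressed seedlings, a net change of -9.64 ± 0.58 (adjusted p 7.52e-14). TT10 (Eucgr.F02648), which oxidises flavonoids in the Arabidopsis seed coat, had most reads: 101, 91.4 and 157 CPM in C0, 901, 1602 and 1397 in C1, 116, 189 and 120 in S0, and 10.2, 32 and 25 in S1. No group but C0 and S0 overlapped another, and the net change was -6.18 ± 0.34 (adjusted p 1.47e-14). Most members carry the name LAC14 and lie close together on scaffold 6, so reads may be divided among copies.

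Genes that supply phenolics showed the same opposition with a smaller stress arm. Of 30 shikimate and flavonoid genes 28 were net falls and 2 were not called, with a median of -3.88. In the watered arm 26 rose (median 2.08), and in the stress arm 20 fell and 2 rose (median -1.40). Of the 28 calls 16 were called in both arms in opposite directions and 8 in the watered arm alone. EMB3004 (Eucgr.H04427), the dehydroquinate dehydratase and shikimate dehydrogenase, rose from 145, 219 and 141 CPM to 554, 901 and 708 in watered seedlings and fell from 153, 256 and 192 to 0.866, 4.46 and 1.45 in stressed seedlings. This amounted to a net change of -8.76 ± 0.34 (adjusted p 5.84e-18). DHS1 (Eucgr.H04748), the entry enzyme of the shikimate pathway, fell in stressed seedlings from 468, 501 and 523 to 62.8, 60.8 and 64.3 CPM and rose in watered seedlings from 502, 621 and 571 to 692, 1195 and 1078 CPM, a net change of -3.77 ± 0.26. ATC4H (Eucgr.J01844), the cinnamate hydroxylase of the next pathway, was an exception: it rose by 1.97 ± 0.22 under stress and by 2.02 ± 0.22 in watered seedlings, with a net change of -0.05 and an interval of -0.67 to 0.56.

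Serine carboxypeptidase-like (SCPL) and UDP-glycosyltransferase genes, families that include enzymes making and using glucose esters of phenolic acids, gave 38 net falls and 4 genes not called among 42. The median was -4.99, with 31 genes higher in the watered arm, 32 lower in the stress arm and 24 of the calls opposite. SCPL13 (Eucgr.C00146, scaffold 3 from 4084845 to 4089580) had the largest net fall of the genes named for size, from 40.2, 61.4 and 76.4 CPM to 930, 1644 and 847 in watered seedlings and from 56, 111.4 and 75.4 to 0, 4.46 and 0 in stressed seedlings. The net change was -10.62 ± 0.56 (adjusted p 5.44e-15), and all 11 reads left in S1 came from Mt Isa. The related scpl5 (Eucgr.G01113) and scpl18 (Eucgr.I01037) had net changes of -8.36 ± 0.47 and -7.70 ± 0.39. UGT84A1 (Eucgr.G01342), a hydroxycinnamate glucosyltransferase, rose from 336, 415 and 428 to 1708, 2093 and 1645 CPM in watered seedlings and fell from 430, 485 and 427 to 5.85, 12.6 and 12.3 CPM in stressed seedlings. Its net change was -7.69 ± 0.30 (adjusted p 6.49e-18).

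Terpene synthases, which make leaf oils, were net falls in 16 of 18 genes and not called in 2, with a median of -4.30; without the population block 9 were net falls. In the watered arm 11 rose and in the stress arm 14 fell. A TPS10 transcript (CUFF.1343) differed widely among populations: C0 was at 11.2, 1023 and 1122 CPM, C1 at 370, 3557 and 2509, S0 at 177, 924 and 879, and S1 at 19.7, 153 and 242. Katherine was lowest in every group. The net change was -4.67 ± 0.56 (adjusted p 1.05e-07), and it was not called without the population block (adjusted p 0.0756). Another TPS10 transcript, CUFF.32663, had a net change of -5.52 ± 0.89 on 4 reads in S1, all from Petford; without that library S1 holds no read of it.

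Cell division, histone and tubulin genes were net falls in 36 of 40 genes and not called in 4, with a median of -3.88. The list was used as a marker of dividing or young leaf tissue, and whether its genes mark such tissue here was not tested. In the watered arm 14 of its genes rose (median 1.10), and in the stress arm 32 fell (median -2.73). The tubulin TUA2 (Eucgr.G01186) stood at 813, 547 and 670 CPM in C0 and 1153, 992 and 932 in C1 (adjusted p 0.015) and fell from 666, 512 and 705 to 182, 147 and 199 CPM in stressed seedlings. Every S1 library was below every other, for a net change of -2.45 ± 0.25 (adjusted p 3.97e-09). SYP111 (Eucgr.K03469), a syntaxin of the forming cell plate, went from 7.5, 6.41 and 3.87 to 28.7, 32 and 13.9 CPM in watered and from 5.28, 3.58 and 6.23 to 0.216, 0.81 and 0.485 CPM in stressed seedlings, a net change of -5.47 ± 0.65.

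Aquaporins, the water channels of membranes, had a share of net falls near that of all named genes and below that of genes named by coordinates, which 10 of the 15 were. Of these 15 genes 8 were net falls, 2 net rises and 5 not called, with a median of -2.08, and 9 of the 10 calls were called in the stress arm alone. GAMMA-TIP (Eucgr.K02438), a channel of the vacuole membrane, was at 1314, 1088 and 1012 CPM in C0, 1406, 1101 and 968 in C1, 990, 1116 and 1316 in S0, and 109, 100 and 118 in S1. The 9 libraries of C0, C1 and S0 overlapped, S1 was apart from all of them, and the net change was -3.42 ± 0.26 (10.7-fold lower, adjusted p 1.69e-11). TIP4;1 (Eucgr.C02914) had the largest net fall, -4.07 ± 0.39, from 78.8, 57.8 and 58.5 CPM in S0 to 4.11, 1.62 and 2.75 in S1. The rises were PIP2F (2.50 ± 0.29) and SIP1;2 (1.86 ± 0.25), named here after their values were seen.

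Secondary wall and xylem genes gave 9 net falls and 2 net rises among 17, with a median of -3.25, a share of falls below that of genes named by coordinates, which 12 of them were; 7 rose in the watered arm and 9 fell in the stress arm. XBCP3 (Eucgr.E02751), a cysteine peptidase, rose from 251, 371 and 350 to 1149, 1342 and 1177 CPM in watered seedlings and went from 510, 471 and 443 to 121, 233 and 379 CPM in stressed seedlings, a net change of -2.99 ± 0.33. The cellulose synthase IRX3 (Eucgr.H00189), a subunit for secondary walls, moved against the list. It was at 15.4, 11.9 and 4.23 CPM in S0 and 301, 275 and 262 in S1, with 0.971 to 11.2 CPM in watered seedlings, and its net change was 6.02 ± 0.57 (adjusted p 1.15e-09).

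The epidermis, cuticle and stomata list moved in both directions, with 29 net falls, 13 net rises and 8 genes not called among 50 and a median of -3.31. Its share of falls was also below that of genes named by coordinates, 40 of the 50. The GDSL-type lipase Eucgr.B02163, of a family with members that build cutin, was steady at 488 to 756 CPM in C0, C1 and S0 and at 0, 2.84 and 0.808 CPM in S1. Its net change of -9.32 ± 0.42 (adjusted p 1.72e-16) came from the stress arm alone, the watered arm being 0.06 ± 0.22. The lipid transfer protein LTP3 (Eucgr.A00746) rose instead, from 706, 344 and 1002 CPM in S0 to 2585, 2581 and 5880 in S1, with a net change of 1.70 ± 0.32 (adjusted p 0.000133), not called without the population block (adjusted p 0.0214).

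Antioxidant and iron genes showed no common direction, with 5 net rises, 3 net falls and 5 not called among 13 and a median of 0.59, or 0.36 without the Mt Isa population. The list had 3 net rises, in place of 5, without the Mt Isa C0, Mt Isa C1, Mt Isa S0, Petford S0 or Petford S1 library, and 1 net fall, in place of 3, without the Katherine C0, Katherine C1, Petford C1, Katherine S0 or Petford S1 library. Ferritin 4, ATFER4 (Eucgr.K02961), an iron store of chloroplasts, rose from 8.93, 17.9 and 4 CPM in S0 to 655, 508 and 669 in S1, with 1.69 to 6.07 CPM in watered seedlings and a net change of 6.97 ± 0.59 (adjusted p 1.1e-10). Catalase CAT2 (Eucgr.F01776) was steady in stressed seedlings (1641 to 2484 CPM) and fell from 1665, 1934 and 1701 to 687, 886 and 1167 CPM in watered seedlings. Its net change of 0.79 ± 0.27 was not called (adjusted p 0.032). With the seedling set as replicate block, which pairs the bulks of the same seedlings, it was called (0.81, adjusted p 0.00844), as it was without the Katherine S0 library (1.01, adjusted p 0.00781), and it was 0.38 without the Mt Isa population.

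No cytosolic ribosomal protein passed the test: of 22, 0 were called in the net change by edgeR's quasi-likelihood test and 0 by DESeq2, the lowest adjusted p was 0.0549, and 8 had an unadjusted p under 0.05, all of them higher. Their net changes lay between 0.05 and 0.71 with a median of 0.42. RPL7aB (Eucgr.B00159), with most reads, was at 296 to 410 CPM in C0, 262 to 401 in C1, 413 to 515 in S0 and 444 to 993 in S1.

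Outside the lists, the genes with most reads in each pattern of the arms show what the patterns look like. RD22 (Eucgr.C02887), a dehydration-responsive gene, rose in stressed seedlings from 2450, 1747 and 2985 to 3998, 4049 and 5781 CPM, with C0 at 1530, 2323 and 2185 and C1 at 1187, 1665 and 2716. Its net change of 1.11 ± 0.28 (adjusted p 0.00335) was small beside its spread in watered seedlings, and it was not called without the population block or without any one of the libraries Katherine C0 or C1 or Mt Isa C0, C1, S0 or S1 (adjusted p 0.0103 to 0.0741). A cyclophilin (Eucgr.G01759), a protein-folding isomerase, rose from 900, 1033 and 1193 to 4207, 4473 and 5173 CPM under stress, a net change of 2.53 ± 0.25. ALDH11A3 (Eucgr.C02594), an aldehyde dehydrogenase, was called in the watered arm alone, where it rose from 470, 729 and 670 to 1352, 1419 and 1565 CPM. S1 (519, 563 and 515) was below S0 (756, 585 and 726) in every population, by -0.38 ± 0.18, but was not called (adjusted p 0.11 by edgeR). The net change of ALDH11A3 was -1.60 ± 0.26. PHR2 (Eucgr.H01108), related to photolyases, rose from 585, 729 and 722 to 1446, 2078 and 2081 CPM in watered and fell from 631, 762 and 640 to 103, 89.9 and 98.9 CPM in stressed seedlings, a net change of -4.24 ± 0.26. ATTSPO (CUFF.37010), a membrane protein that abscisic acid induces in Arabidopsis, was among the 8 largest rises, from 9.34, 4.77 and 4 to 772, 516 and 970 CPM under stress, with a net change of 8.40 ± 0.65. So was CUFF.31133, matching a reverse transcriptase, with 7.58 ± 0.46, but it overlaps another transcript and is uncertain.

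**Figure D5:**
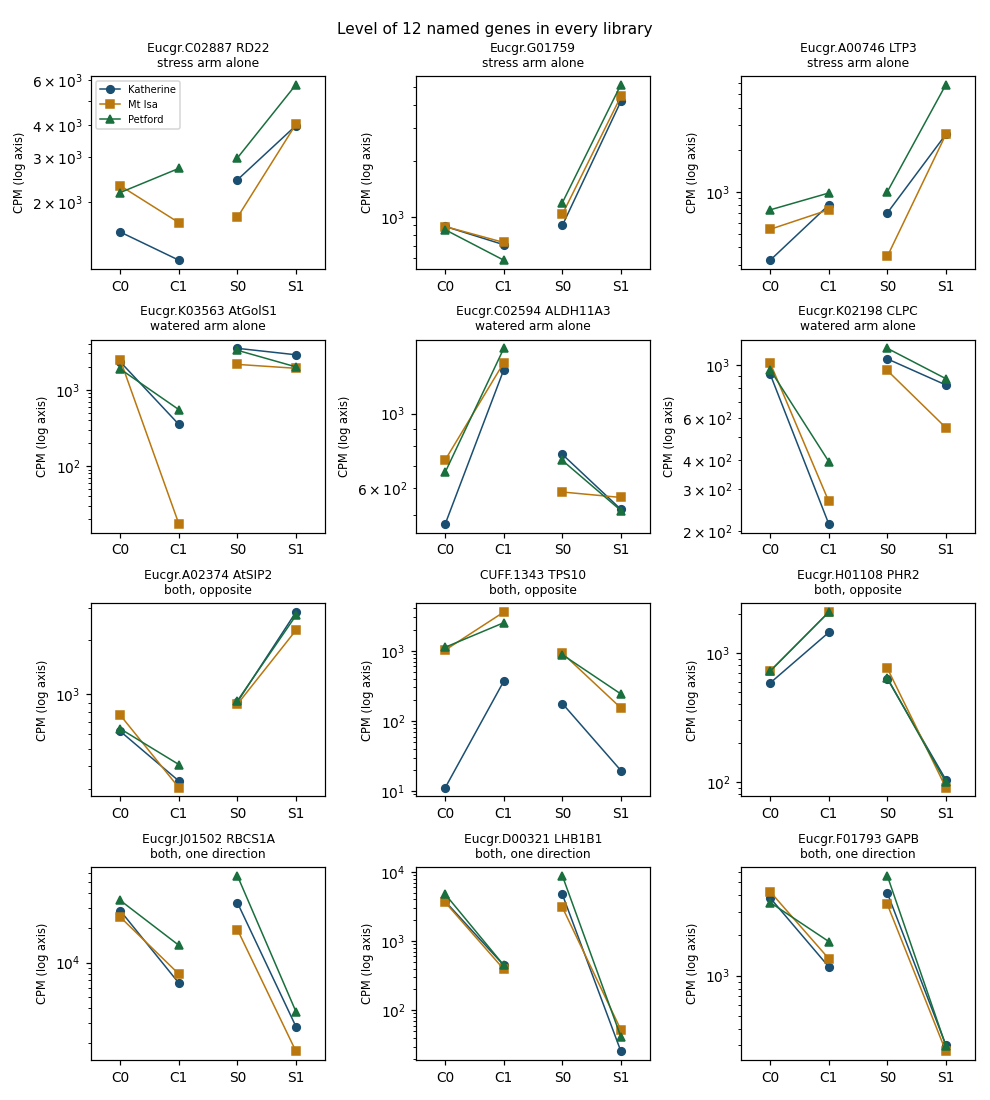
Each panel is a gene, with CPM on a log axis for C0, C1, S0 and S1; markers and colours are the populations, and lines join the bulks of the same seedlings. From top to bottom the rows show genes called in the stress arm alone, in the watered arm alone, in both arms in opposite directions and in both in the same direction, such as RBCS1A, whose S1 libraries at 1695 to 3746 CPM lie below C1 at 6631 to 14122 CPM.

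Some transcripts changed alike in both arms. A shared change was defined as both arms called in the same direction with the 95% interval of the net change within 1 of 0 on the log2 scale, that is, a net change under 2-fold. It was met by 446 transcripts (1.07%), 366 falls (0.882%) and 80 rises (0.193%). The count was 230 without the Mt Isa C1 and S0 libraries, 235 without the Katherine C0 library and 257 without the Mt Isa C1 library. The falls with most reads were both Rubisco activase transcripts, PSAL and a transketolase. PSAL (Eucgr.K02362), a subunit of photosystem I, fell from 3071, 2760 and 2864 to 1098, 972 and 1250 CPM in watered and from 3716, 2528 and 4732 to 1226, 1017 and 1232 CPM in stressed seedlings, so that C1 and S1 overlapped. Its net change was -0.23 with an interval of -0.73 to 0.27. The transketolase (Eucgr.D02467) of the Calvin cycle and pentose pathway fell by 1.77 and 1.88 in the stress and watered arms. The rises with most reads were ATC4H, ROF1, a fructose-bisphosphate aldolase (Eucgr.A01538), which rose by 1.20 ± 0.19 and 1.03 ± 0.19, and the peroxiredoxin TPX1 (Eucgr.C03812), which rose by 0.70 ± 0.17 and 0.64 ± 0.17 and had a net change of 0.06 with an interval of -0.41 to 0.54.

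A last group had reads in some groups only, and is given in reads, since no fold can be set against a group at 0. Of the called transcripts 233 had no read in at least 1 group, 29 of them named. FTSH6 (Eucgr.J01348), a chloroplast protease, had 0 reads in S0, 4608 in S1, and 4 and 11 in C0 and C1. A glycosyl hydrolase (CUFF.15800) had 25 reads in S0 and 2990 in S1, with 6 and 0 in C0 and C1, and an aluminium-induced protein of the dormancy list (CUFF.28412) had 76 and 2311, with 22 and 0. In the other direction, LAC14 (Eucgr.F02646) had 142 and 1880 reads in C0 and C1 and 233 and 0 in S0 and S1. A GDSL-type lipase (Eucgr.E02867) had 348 and 574 reads, then 484 and 0. A UDP-glycosyltransferase (Eucgr.L02741) had 9 and 534 reads, then 7 and 0; it was not called without the Petford S0 library (adjusted p 0.0234).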

How the data were processed

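Leaf RNA of 12 bulks was sequenced by the authors as single-end reads of 65 bases, mapped with TopHat and Bowtie to the draft genome of Eucalyptus grandis, assembled with Cufflinks on pooled alignments without annotation, and counted with BEDTools. Their versions and the genome's release were not given in the sources used here. What was deposited are raw counts per predicted transcript, named by scaffold, start and end, without normalization. Reads were counted without a stated strand, so overlapping transcripts are uncertain.

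Of 43425 rows 245 were identical to another and used once, 1633 of the 43180 distinct rows shared scaffold and start with another and were dropped, and transcripts with at least 10 reads over the 12 libraries were tested, 41513 in all. TMM scaling was applied to the counts, and edgeR 4.0.16 (limma 3.58.1, R 4.3.3) gave the quasi-likelihood F test, 2-sided, on group and population, with Benjamini-Hochberg adjustment over all transcripts at 0.01. The net change and both arms are contrasts of this fit. Errors were derived from the test by dividing the absolute log2 change by the square root of F, which can understate them for groups with few reads. Net changes per population are on log2 CPM with a prior count of 2. DESeq2 1.42.0, other scalings and filters, other blocks, single libraries or populations left out, and the fit without the Mt Isa C1 and S0 libraries were alternatives.

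C0 and C1 share seedlings within a population, as do S0 and S1, and both arms share the population. The deviations from the group means over 12671 transcripts with at least 10 CPM correlated at 0.0245 to 0.485 within a population (0.227 to 0.485 for the same seedlings) and at -0.365 to 0.0579 between populations.

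On simulated data for the net change, with 41513 transcripts at these depths, 49 of 100 transcripts changed 4-fold and 2 of 100 changed 2-fold were called, none with the wrong sign, with 1 false call. Only these transcripts were changed, they were drawn from those with more reads, and no population effect was simulated. With so few changed, the adjusted level is harder to pass than in the data, where 5642 net changes were called. The simulated shares therefore do not give the share of 2-fold net changes detectable in these libraries.

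Transcripts were given gene names by coordinates (1161 genes) or SNP position (569 genes) from the study's tables, of which only part was used here, with Arabidopsis matches up to an E value of 1e-05; 44 genes with ambiguous SNPs were left out. The members, lists and named genes were chosen with earlier results of these data known. The text names, among genes called with at least 4 reads in each group and the same sign in the 3 populations, the 8 largest rises and 8 largest falls; in each list the gene with most reads and the largest called change; in each pattern of the arms the 3 with most reads; the 4 rises and 4 falls with most reads among shared changes; and the 3 rises and 3 falls with most reads among calls with a group at 0. The list of organelle homologs is given in the closing section, the others in the results.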

Additional observations from a re-analysis of the deposited data

Results flagged for a closer look

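Of the 56 called genes that the text names by the rule, 32 had reads in every group and opposite arms in every population. That is, all 3 stressed populations moved in one direction and all 3 watered populations in the other. Opposite arms in every population were seen in 9.89% of all transcripts and in 41.7% of all net calls. The difference between the arms is the net change itself and was tested for each gene by edgeR's quasi-likelihood test, and these genes were named partly for its size. Every value here is the net change on the log2 scale.

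Among genes of stress protection and its regulators with higher end values in every stressed and lower end values in every watered population, the values were 10.27 for LEA4-5, 7.81 and 7.47 for the HSP21 transcripts Eucgr.K00423 and Eucgr.L02980, 7.54 for ATBZIP53, 7.38 for the chitinase ATHCHIB (Eucgr.I01495), 6.97 for ATFER4, 6.23 for AtGolS4, 5.02 for XERICO, 2.53 for the cyclophilin Eucgr.G01759 and 2.50 for AtSIP2. KNAT4, called in neither arm, had 0.99. The dormancy-associated Eucgr.D00606 had 6.40 and CUFF.31133, which overlaps another transcript, 7.58.

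Among genes of phenolic metabolism with the opposite pattern, the values were -10.62 for SCPL13, -9.64 for LAC14 (Eucgr.H02579), -8.76 for EMB3004, -8.36 for scpl5, -7.70 for scpl18, -7.69 for UGT84A1, -6.18 for TT10 and -3.77 for DHS1. The terpene synthase TPS10 had -4.67 for CUFF.1343 and -5.52 for CUFF.32663. Growth and division genes in this direction were SYP111 (-5.47) and TUA2 (-2.45). The rest were the cysteine peptidase XBCP3 of the secondary wall and xylem list (-2.99), the thaumatin-like Eucgr.B00944 (-8.59), ABA2 (Eucgr.L01033, -7.22), the RBCL homolog (Eucgr.B03944, -5.15), PHR2 (-4.24), GGR (Eucgr.F00752, -2.83) and ALDH11A3 (-1.60).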

How the results depend on the processing

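The count of net calls was 4077 to 8351 over 25 alternatives, within 1.5 times of 5642 in each, and the stress-arm count and the differences at the end were also within 1.5 times. The highest count came from the 0.05 level. With DESeq2's size factors the median net change of all transcripts moved by -0.1055 and 34.7% of calls were rises, against 40.2%. Of the 56 called genes that the text names by the rule, 47 kept the call in every alternative, 9 lost it in at least 1, and 0 changed sign. Depth limited the calls: 0.181% of the fifth of transcripts with fewest reads (10 to 29) were called and 37.6% of the fifth with most, with median standard errors of 1.89 and 0.288.

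Without the replicate block 4390 transcripts were called, among them 77.7% of the calls with it, and with a replicate block of the seedling set 6785, among them 99.9%; the latter fit gives no start or end difference. With no block the start difference was 0, the watered arm alone 306, both arms opposite 288 and both in the same direction 217; with the seedling set as replicate block the opposite group was 873 and the same-direction group 613. At the 0.05 level the start difference was 15, the watered arm alone 746, opposite 991, same direction 685 and neither arm 487. The start difference was 2 with at least 1 CPM in 3 libraries and 168 with transcripts sharing a start kept. Without the Mt Isa C1 and S0 libraries it was 76, the watered arm alone 279, neither arm 209 and shared changes 230.

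Leaving out a library or a population gave 1943 to 3325 calls in the watered arm, 4 to 195 at the start, 274 to 518 in the watered arm alone, 219 to 392 in the same direction and 234 to 395 shared changes; the cause was not tested, beyond the fewer libraries of each fit. The genes whose net change took another sign were all uncalled and near 0, except Eucgr.L01887. Leaving out libraries gave -1.16 to 1.95 for Eucgr.L01887, -0.12 to 0.30 for Eucgr.A01538, -0.70 to 0.19 for ATC4H, -0.11 to 0.17 for TPX1, -0.57 to 0.080 for RCA Eucgr.J02030, -0.15 to 0.57 for RCA Eucgr.J01234 and -0.14 to 0.23 for Eucgr.D02467. TPX1 was also -0.034 with DESeq2's size factors, -0.016 with library totals, -0.035 by DESeq2 and -0.062 without the Mt Isa C1 and S0 libraries, and RCA Eucgr.J01234 was -0.13 there.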

Other observations

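Homologs of chloroplast or mitochondrial genes formed a list with large differences between libraries of a group. Their summed level was 796 to 1440 CPM in C0, 243 to 530 in C1, 601 to 11805 in S0 and 209 to 4124 in S1. Katherine and Petford were high in both S0 and S1 (6067 and 11805 CPM, then 3819 and 4124), whereas Mt Isa was at 601 and then 209 CPM. Of the 13 genes 12 had no called net change, and the median of 0.77 took the other sign in 1 alternative. The member with most reads, a ribosomal constituent (Eucgr.L01887), was at 1483, 129 and 2855 CPM in S0 and 964, 51.9 and 953 in S1, with a net change of 0.54 ± 0.84. The single call was a match on scaffold 2 to RBCL, the large subunit of Rubisco (Eucgr.B03944), which fell from 24, 37.5 and 48.5 CPM in S0 to 1.3, 2.03 and 1.13 in S1, with 53, 35.9 and 38.9 in C1 and a net change of -5.15 ± 0.42 (adjusted p 6.26e-11).

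Single genes of several lists went against their list, and were chosen here after their values were seen. PSBR (Eucgr.F01447), a photosystem II subunit, had a net change of 2.70 ± 0.38, where 8 of its list were net falls. AtSIP1 (Eucgr.F01231), a homolog of AtSIP2, had -3.61 ± 0.31 in the raffinose list. In the secondary wall list, 1 of the O-methyltransferase transcripts named ATOMT1 (Eucgr.A01397) had 1.88 ± 0.30, where 3 others were net falls of -4.46 to -5.42. In the list of drought transcription factors, mostly net rises, HB-7 (Eucgr.D02223), placed there by its annotated name, had -3.68 ± 0.53. ATHB-7 (Eucgr.A01422), a homeobox gene with a similar symbol, went with the list at 6.42 ± 0.57. The similar symbols do not show that both genes have the same role.

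Also chosen after its values were seen, FSD1, an iron superoxide dismutase (Eucgr.K00110), had a net change of 2.90 ± 0.33 with both arms lower, by -0.93 in the stress arm and -3.84 in the watered arm.

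The share of transcripts with a called net change lay between 11.4% on scaffold 5 and 15.9% on scaffold 4 for the scaffolds numbered 1 to 11, and was 9.38% for the 1951 transcripts on smaller scaffolds.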
